A study of Mus musculus with 6 samples.

Results

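The genes that cut, protect and crosslink the extracellular matrix were followed in WT mouse embryonic fibroblasts (MEFs), cultured cells that lay down collagen-rich matrix. The genes were chosen by symbol. They are the matrix metalloproteinases (Mmp), their tissue inhibitors (Timp), the Adam, Adamts and Adamts-like families, the lysyl oxidases (Lox, Loxl), the prolyl and lysyl hydroxylases of collagen (P4ha, Plod), the collagen chaperone Serpinh1, and genes of the plasminogen activator system, among them Plau, Plat and Plaur. Of the 55291 genes listed, 99 matched by symbol, and the 54 with at least 10 counts in every library are described here. MEFs received vehicle, MASM7, a small molecule that activates the mitofusins, or MFI8, a small molecule that inhibits them. The mitofusins, MFN1 and MFN2, are the outer membrane GTPases that tether and fuse mitochondria, and the cells of all 3 groups were WT for both. Each group had 2 libraries of polyA RNA from separate biological replicates. MASM7 was used at 1 μM for 6 h and MFI8 at 20 μM for 6 h, while for vehicle no duration is given. The MEFs came from a stock of another laboratory, and nothing in the sources used here says whether the replicates came from different embryos or clones.

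Matrix turnover is set by proteases and by the proteins that hold them in check. MMPs and ADAMTS proteases cleave collagens, fibronectin and proteoglycans outside the cell, TIMPs bind their active sites, and ADAMs release proteins from the cell surface. Urokinase (Plau), held at the cell surface by its receptor (Plaur), and tissue plasminogen activator (Plat) turn plasminogen into plasmin. Inside the cell, prolyl and lysyl hydroxylases and the chaperone HSP47 (Serpinh1) prepare procollagen, and lysyl oxidases crosslink the finished fibres outside.

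The 6 libraries held 22791792 to 30677751 counts, and the 54 genes took 0.426% to 0.460% of them. The labelled cell type was checked against marker genes in TPM, a level corrected for gene length and library depth. Of 13 fibroblast markers, 11 reached 1 TPM, while Thy1 and Lum stayed below it in every library. The summed fibroblast level was 5886 to 7291 TPM with vehicle, 6439 to 7321 with MASM7 and 5700 to 6914 with MFI8. Its highest markers, Vim, S100a4, Col1a1, Col1a2 and Fn1, were lower in the replicate 2 library of every group, but Twist1 only with MFI8. All 5 endothelial and all 5 epithelial markers stayed under 1 TPM in every library. So did 3 of 5 blood and macrophage markers, 3 of 4 muscle markers and 2 of 4 neural markers. Ptprc was at 0.013 TPM or less, and Adgre1, Myod1, Myog and Sox10 were at 0. Csf1r and Cd68, of the blood and macrophage list, were present in every library, at 4.18 to 6.01 and 8.91 to 11.9 TPM. The summed muscle level, mostly Acta1, was 0.832 to 1.17 TPM with vehicle, 0.761 to 1.06 with MASM7 and 1.77 to 1.82 with MFI8. The summed neural level, nearly all of it Tubb3, was 48.0 to 51.1 TPM with vehicle, 63.6 to 63.7 with MASM7 and 62.8 to 69.9 with MFI8. Genes encoded in mitochondria took 1.66% to 1.82% of the counts with vehicle, 1.51% to 1.61% with MASM7 and 1.37% to 1.43% with MFI8. In bulk RNA, fewer cells of a type and less RNA per cell cannot be told apart.

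The 45 matching genes under the minimum were nearly silent. A total of 21 had 0 counts in every library and 37 had at most 5. Serpine2, which encodes the inhibitor protease nexin 1, had 1 count in 1 library and 0 in the other 5. Every collagen hydroxylase and every lysyl oxidase on the list passed the minimum, as did 4 of 5 genes of the plasminogen activator system, 3 of 4 TIMPs and 8 of 15 secreted MMPs. Mmp15, with 8 to 16 counts, was the only one of the 45 that was tested. Of the ADAMs, 10 of 33 passed, many of the others being known from the testis.

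Levels of the 54 genes ran over more than 3 orders of magnitude in TPM. Serpinh1 was highest, at a mean of 1312 TPM over the 6 libraries, followed by Timp1 at 789 TPM and Timp2 at 486 TPM, and Plaur had 205 TPM. The lowest were Adamtsl1 at 0.279 TPM, Adamtsl3 at 0.336 TPM and Adamts5 at 0.396 TPM. Mmp2, the highest secreted MMP, had a mean of 41.4 TPM. Only 6 genes had a mean under 1 TPM, with counts as low as 12 in a library, and their fold changes carried wide intervals.

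**Figure D1:**
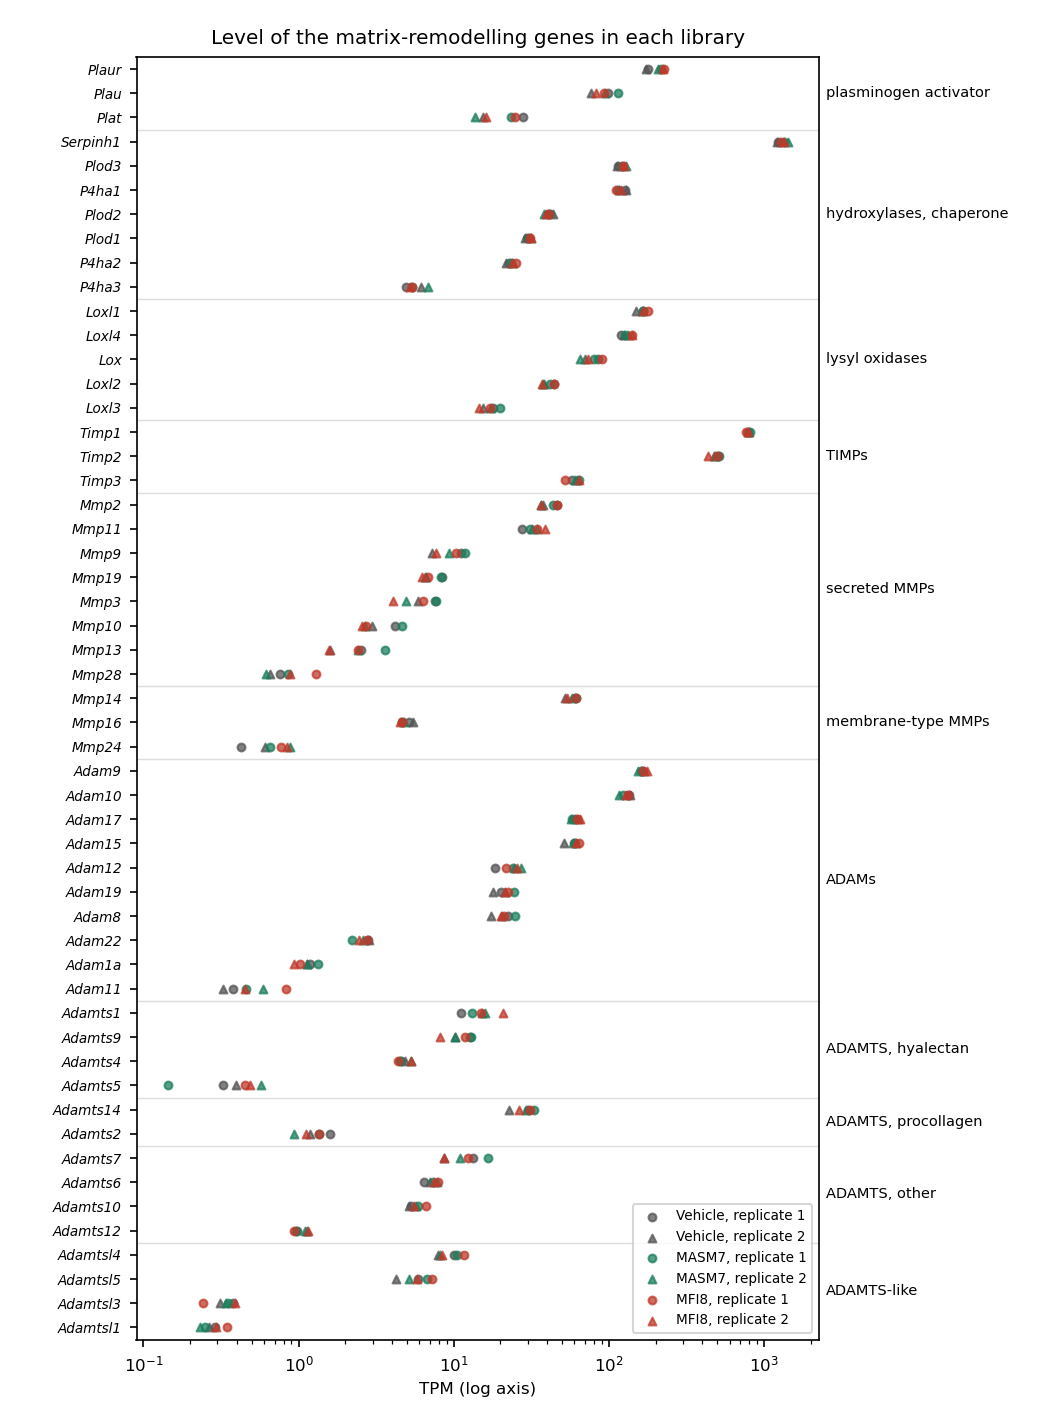
Level of each gene described, in TPM on a log axis, grouped by role, with 1 point per library (circles for replicate 1, triangles for replicate 2). Serpinh1, Timp1 and Timp2 lie at the right and Adamtsl1 at the left, and for most genes the 3 groups overlap or lie close together.

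With MFI8 for 6 h, 0 of the 54 genes passed an adjusted p of 0.05 in edgeR, against 0% of the 14290 genes tested. DESeq2 called 1 of them, Plaur, and 0.329% of all genes, and limma on TPM called 0 and 0%. At an unadjusted p under 0.05, 4 genes were higher with MFI8 (7.41%, against 5.21% of all genes) and 2 were lower (3.70%, against 4.65%). These shares were near those of all genes. Both MFI8 libraries lay above both vehicle libraries for 15 genes (27.8%, against 20.9% of all genes) and below them for 8 (14.8%, against 19.3%). Across the 54 genes the median fitted log2 fold change was 0.02, and across all genes tested it was 0.00. The former was 0.12 without the replicate 1 library of vehicle and -0.036 without its replicate 2 library. The fitted values ran from -0.46 for Mmp10 to 0.80 for Adam11, and the median half-width of their 95% intervals was 0.28. In a fit that took the replicate number as a block, 7 of the 54 genes passed in edgeR, against 5.04% of all genes. The libraries of 1 number deviated together, though no source says what a number marks, and the blocked value stands with each named gene whose call it changed.

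With MASM7 for 6 h, the count at an adjusted p under 0.05 was again 0 of 54 in edgeR, against 0% of all genes, and it was 0 in DESeq2, which called 0.021% of all genes, and 0 in limma. With the replicate block 9 passed in edgeR, against 3.88% of all genes. At an unadjusted p under 0.05, 4 genes were higher (5.32% of all genes) and 2 were lower (4.88% of all genes). Both MASM7 libraries lay above both vehicle libraries for 12 genes (22.2%, against 21.2% of all genes) and below them for 7 (13.0%, against 21.6%). Across the 54 genes the median fitted value was 0.09, beside 0.00 for all genes, with 38 genes at a value above 0 and 16 below. This median was 0.14 without the replicate 1 library of vehicle, 0.035 without its replicate 2 library and 0.053 without the replicate 1 library of MASM7. Many single values moved when 1 library was left out. Those fits held no replicate term, so they also carried the gap between the number 1 and number 2 libraries. Of the 42 genes taken by the naming rule, the value turned its sign or moved by over 1.5 times in at least 1 fit without a library for 33 with MFI8, 29 with MASM7 and 39 between the compounds. It did so with neither compound against vehicle for Plaur, Loxl4, P4ha1, Plod3, Adam10, Mmp16 and Adamts6. Both compounds were compared with the same 2 vehicle libraries, so their values are given side by side and are not independent of each other.

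**Figure D2:**
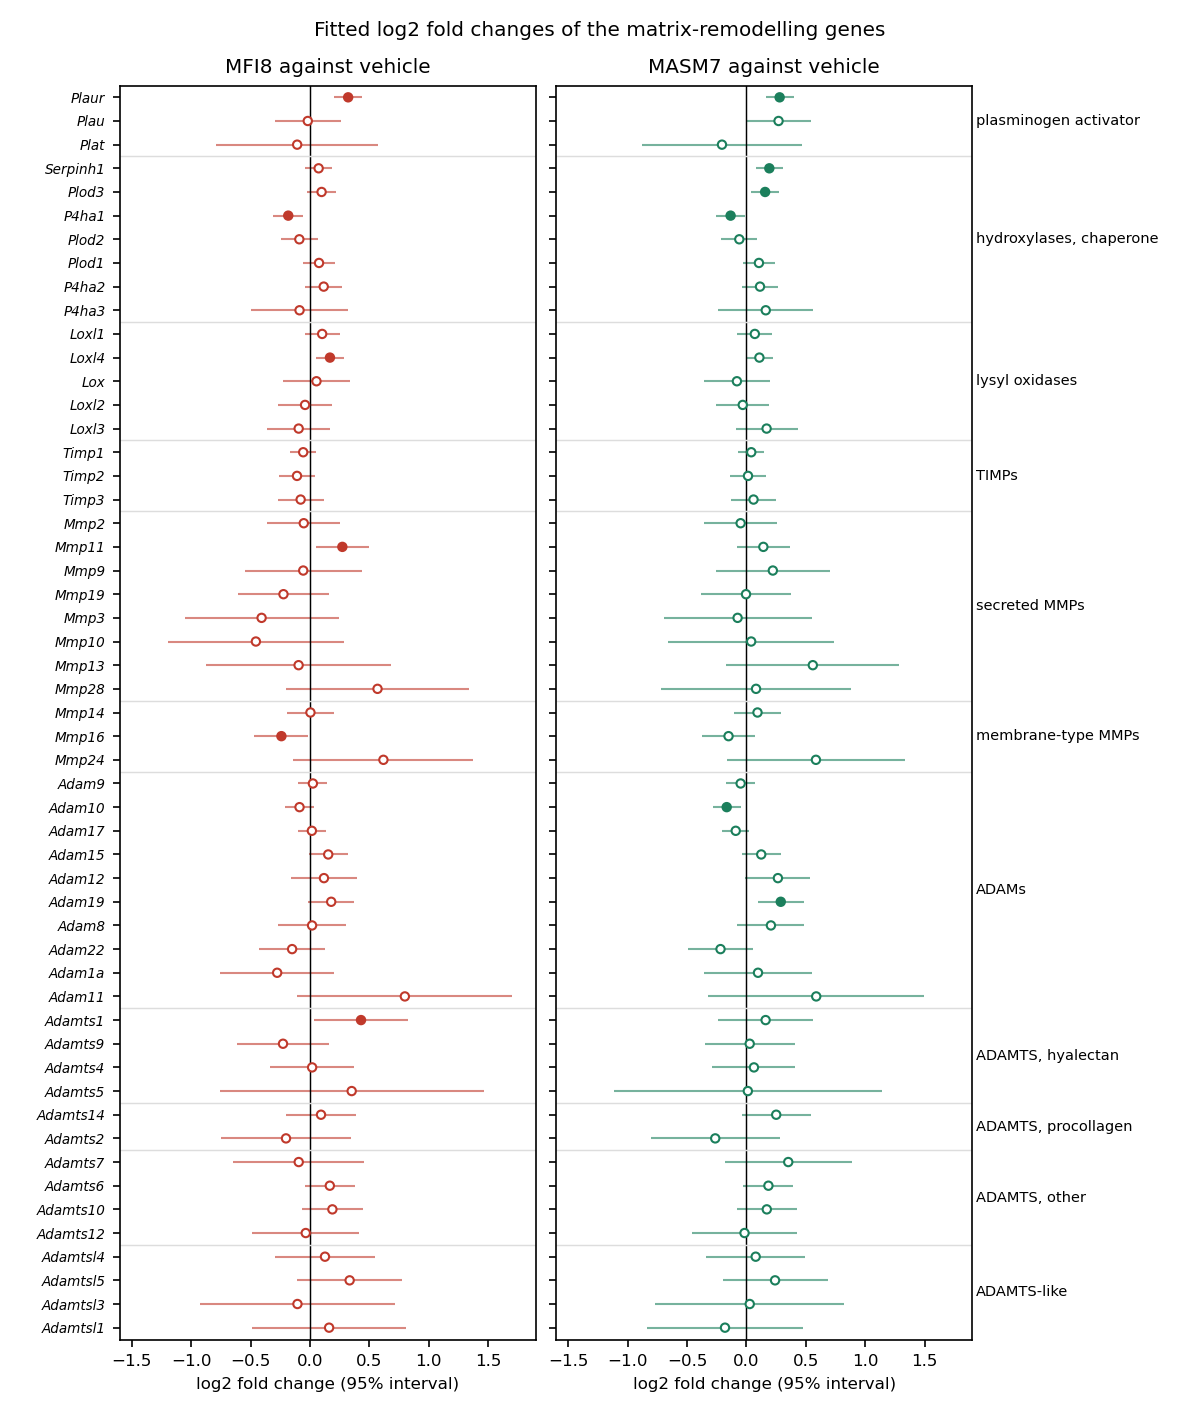
Fitted log2 fold change of each gene described, with MFI8 (left) and MASM7 (right) against vehicle, with 95% intervals, grouped by role. Filled points mark the 6 genes per compound with an unadjusted p under 0.05, and 0 genes passed after adjustment. Most intervals cross 0, and the widest belong to genes under 1 TPM.

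Of Plau, Plat and Plaur, only Plaur had treated libraries that did not overlap with vehicle. Plaur (chr7:24462484-24475968, plus strand, GRCm38), the urokinase receptor, had 134 and 128 CPM (the count divided by the TMM-scaled library size) with vehicle, 162 and 156 CPM with MASM7, and 164 and 163 CPM with MFI8. All 4 treated libraries lay above both vehicle libraries. Its mean ± SD (n = 2) was 131 ± 4.41 CPM with vehicle, 159 ± 4.14 CPM with MASM7 and 163 ± 0.480 CPM with MFI8. The fitted log2 fold change was 0.32 with MFI8 (95% interval 0.20 to 0.44, edgeR adjusted p = 0.0924), a level 24.9% higher. With MASM7 it was 0.28 (0.16 to 0.40, edgeR adjusted p = 0.466), a level 21.4% higher. Plaur had the smallest p of the 54 genes with both compounds and ranked 20 and 7 among the 14290 genes. In DESeq2 its adjusted p with MFI8 was 0.00153. With the replicate block in edgeR its adjusted p was 3.94e-05 with MFI8 and 0.00119 with MASM7. Over all alternatives its log2 fold change stayed between 0.29 and 0.36 with MFI8 and between 0.25 and 0.31 with MASM7. The Tubb3 level and the mitochondrial share given above separated vehicle from both compounds as well, and their part in the Plaur values was not tested.

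Plau (chr14:20836660-20843385, plus strand), which encodes urokinase, had 66.4 and 50.8 CPM with vehicle, 77.0 and 64.3 CPM with MASM7, and 61.1 and 54.6 CPM with MFI8. Its replicate 1 library was the higher one in every group, and each treated group overlapped with vehicle. Its fitted log2 fold change was -0.02 with MFI8 (95% interval -0.30 to 0.26) and 0.27 with MASM7 (-0.01 to 0.55), with edgeR adjusted p-values of 0.971 and 0.497. Without the replicate 1 or the replicate 2 library of vehicle, the value was 0.19 or -0.20 with MFI8 and 0.48 or 0.09 with MASM7. With the replicate block the value with MASM7 was 0.27, at an edgeR adjusted p of 0.0110. Plat, the tissue-type activator, had 49.6 and 27.1 CPM with vehicle, 41.9 and 24.4 CPM with MASM7, and 43.3 and 28.1 CPM with MFI8. Its libraries differed more within each group than between groups, with fitted values of -0.11 with MFI8 (95% interval -0.79 to 0.57) and -0.21 with MASM7 (-0.88 to 0.47). Both signs turned in a fit without 1 library, and such fits hold no replicate term. Without the replicate 1 library of vehicle the values were 0.39 and 0.29, and without its replicate 2 library they were -0.48 and -0.58. Within each number, Plat was lower with MASM7 than with vehicle. With MFI8 it was lower in number 1 and higher in number 2.

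**Figure D3:**
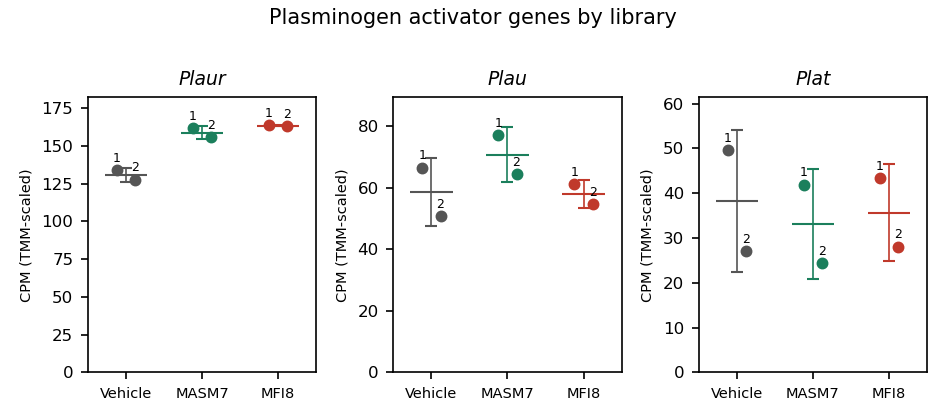
CPM of Plaur, Plau and Plat, with 1 numbered point per library, the group mean as a line and bars of 1 SD (n = 2). The treated libraries of Plaur lie at 156 to 164 CPM, above the vehicle libraries at 128 and 134 CPM, while for Plau and Plat the groups overlap.

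The sequence upstream of Plaur holds a motif of AP-1, the Fos and Jun factor that many matrix proteases are known to respond to. The motif TGANTCA was searched on both strands in the 250 bases before the start of each gene in the RefSeq promoter table (GRCm38.p6), which held 35 windows for 33 of the 54 genes and none for Plau. It was present in 5 windows of 5 genes, and in 6.75% of the 32851 windows of all genes. The stretches around it are shown because Plaur had the smallest p with both compounds and the other 4 genes are those among the 54 that also hold the motif. Mmp3 and Mmp10 are named for their motif after their values were seen. Each line gives the plus strand, 5′ to 3′, with the motif in capitals and 20 bases on each side.

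Plaur: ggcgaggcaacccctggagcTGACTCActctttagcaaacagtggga

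Adam19: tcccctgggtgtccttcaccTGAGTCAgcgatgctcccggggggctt

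Mmp3: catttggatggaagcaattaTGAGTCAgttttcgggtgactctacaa

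Mmp10: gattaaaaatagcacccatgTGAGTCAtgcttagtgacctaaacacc

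Mmp13: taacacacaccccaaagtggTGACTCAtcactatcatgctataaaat

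The stretches lie at chr7:24462394-24462440 (Plaur), chr11:46055833-46055879 (Adam19, in 1 of its 3 windows), chr9:7445756-7445802 (Mmp3), chr9:7502259-7502305 (Mmp10) and chr9:7272459-7272505 (Mmp13). In the 3 MMP genes, which lie in the MMP cluster of chromosome 9, the motif starts 63 (Mmp10), 46 (Mmp3) and 35 (Mmp13) bases before the start, in Plaur 69 and in Adam19 131. These 3 MMPs also hold TATAAA in the window, together with Adamts1 and Plod1 (5 of 35 windows, against 12.4% of all windows). With MFI8, the fitted values of these 5 genes had both signs. Plaur and Adam19 had fitted log2 fold changes of 0.32 and 0.18, while Mmp3, Mmp10 and Mmp13 had -0.41, -0.46 and -0.10, and only Plaur had an interval that left out 0. With MASM7 the values of Plaur, Adam19 and Mmp13 were 0.28, 0.29 and 0.56 and those of Mmp3 and Mmp10 were -0.07 and 0.04, and the intervals of Plaur and Adam19 left out 0. The motif ACGTG, the core that hypoxia-inducible factors bind, was in 9 of the 35 windows, against 16.6% of all windows. These windows belong to 8 genes, P4ha1, P4ha2, Plod3 and Serpinh1 among them. A match describes these letters only.

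Of the TIMPs, which inhibit MMPs and some ADAM and ADAMTS proteases, Timp1 and Timp2 were among the highest genes. All 3 differed little between groups. Timp1 had 199 and 198 CPM with vehicle, 204 and 204 CPM with MASM7, and 188 and 193 CPM with MFI8. Its groups did not overlap, MASM7 lying above vehicle and MFI8 below it, but the differences were small, with fitted log2 fold changes of 0.04 and -0.06. Timp2 had 567 and 524 CPM with vehicle, 562 and 540 CPM with MASM7, and 539 and 473 CPM with MFI8. Timp3 had 135 and 143 CPM with vehicle, 149 and 141 CPM with MASM7, and 118 and 145 CPM with MFI8, and 21.3% of its exonic bases are shared with Syn3. The fitted values of Timp2 and Timp3 were -0.11 and -0.08 with MFI8 and 0.01 and 0.06 with MASM7. All 3 values were below 0 with MFI8 and above 0 with MASM7, but single libraries turned 2 of them. Timp3 with MFI8 was 0.06 without the replicate 1 library of MFI8, and Timp2 with MASM7 was -0.04 without the replicate 2 library of vehicle. None had an edgeR adjusted p under 0.621 against vehicle.

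Among the 8 secreted MMPs, 6 had a fitted log2 fold change below 0 with MFI8 and 3 with MASM7, with medians of -0.08 and 0.06. Mmp2, the gelatinase that fibroblasts usually make, was the highest, at 36.6 to 46.6 TPM, and its fitted values were -0.05 with both compounds, and 0.12 with both without the replicate 1 library of vehicle. Mmp11, stromelysin 3 (chr10:75923222-75936496, minus strand), was the gene of this group with the smallest p with MFI8. It had 21.8 and 25.02 CPM with vehicle, 24.5 and 27.2 CPM with MASM7, and 26.6 and 29.9 CPM with MFI8. Both MFI8 libraries lay above both vehicle libraries, while MASM7 overlapped with vehicle. Fitted in edgeR, the log2 fold change was 0.27 with MFI8 (95% interval 0.05 to 0.50, edgeR adjusted p = 0.428) and 0.14 with MASM7 (-0.08 to 0.37). The replicate block gave an edgeR adjusted p of 0.0303 with MFI8.

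Mmp13, a collagenase, was counted rarely, 30 to 81 times per library. It had 1.93 and 1.19 CPM with vehicle, 2.74 and 1.84 CPM with MASM7, and 1.78 and 1.17 CPM with MFI8. The groups overlapped, and the fitted log2 fold change of 0.56 with MASM7 had a 95% interval of -0.17 to 1.29. It was 0.94 without the replicate 1 library of vehicle and 0.25 without its replicate 2 library. The stromelysins Mmp3 and Mmp10 and the gelatinase Mmp9 were also low, with 2.04 to 3.95 CPM for Mmp3, 1.23 to 2.26 CPM for Mmp10 and 7.19 to 11.9 CPM for Mmp9. Their intervals crossed 0 with both compounds, as did those of Mmp19 and Mmp28, and these 5 were named after their values were seen.

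Of the 3 membrane-type MMPs, which sit in the plasma membrane, Mmp14 was by far the highest. Mmp14, the enzyme known to activate pro-MMP2, had 52.1 to 61.7 TPM and fitted log2 fold changes of 0.00 with MFI8 (95% interval -0.19 to 0.20) and 0.09 with MASM7 (-0.10 to 0.29). Mmp16 (chr4:17852893-18119145, plus strand) had 12.7 and 13.2 CPM with vehicle, 11.4 and 11.96 CPM with MASM7, and 11.2 and 10.8 CPM with MFI8. All 4 treated libraries were below both vehicle libraries. Its fitted value was -0.24 with MFI8 (95% interval -0.47 to -0.01, edgeR adjusted p = 0.473) and -0.15 with MASM7 (-0.37 to 0.07, edgeR adjusted p = 0.602). Mmp24 was under 1 TPM in every library.

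The 10 ADAM genes included the 2 main sheddases of the cell surface, Adam10 and Adam17. Adam10 (chr9:70678997-70780229, plus strand), which cleaves Notch and many other receptors, had 188 and 190 CPM with vehicle, 174 and 163 CPM with MASM7, and 179.9 and 176 CPM with MFI8. All treated libraries were below vehicle. The fitted log2 fold change was -0.17 with MASM7 (95% interval -0.28 to -0.05, edgeR adjusted p = 0.473), a fold of 0.891, and -0.09 with MFI8 (-0.21 to 0.03, edgeR adjusted p = 0.610). The replicate block gave an edgeR adjusted p of 0.0324 with MASM7. Adam17, the TNF-converting enzyme, had 123 and 127 CPM with vehicle, 118 and 118 CPM with MASM7, and 124 and 129 CPM with MFI8. Its MASM7 libraries lay below the others, at a fitted value of -0.09 (-0.21 to 0.03), whereas with MFI8 the value was 0.02. Adam9, the highest of the family at 154 to 176 TPM, had values of 0.02 with MFI8 and -0.05 with MASM7.

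Adam19 (chr11:46055992-46147343, plus strand), a membrane protease known from heart development, had 40.7 and 35.8 CPM with vehicle, 49.6 and 43.9 CPM with MASM7, and 44.4 and 42.2 CPM with MFI8. All 4 treated libraries lay above vehicle. In the fit its log2 fold change was 0.29 with MASM7 (95% interval 0.10 to 0.48, edgeR adjusted p = 0.473) and 0.18 with MFI8 (-0.02 to 0.37, edgeR adjusted p = 0.535). Its blocked fit with MASM7 had an edgeR adjusted p of 0.0110. Adam12, a protease of myoblasts and activated fibroblasts, had 55.7 and 72.8 CPM with vehicle, 72.2 and 82.5 CPM with MASM7, and 64.0 and 75.4 CPM with MFI8. Its groups overlapped, and the fitted values were 0.27 with MASM7 (-0.01 to 0.54) and 0.12 with MFI8. Without the replicate 1 library of vehicle they were 0.09 and -0.06, and without its replicate 2 library 0.47 and 0.33. In the blocked fit its value with MASM7 was 0.27, at an edgeR adjusted p of 0.00960. Adam15 had 103 and 88.7 CPM with vehicle, 107 and 103 CPM with MASM7, and 109 and 104 CPM with MFI8, with fitted values of 0.15 with MFI8 (-0.01 to 0.32) and 0.12 with MASM7, and 0.05 and 0.02 without the replicate 2 library of vehicle. Exonic bases shared with other genes were 10.1% for Adam19 and 20.6% for Adam15, so these counts could hold reads of their neighbours. The largest fitted value of all 54 genes, 0.80 for Adam11 with MFI8, rested on 13 to 30 counts per library and had an interval of -0.11 to 1.70. For Adam8 and Adam22 the intervals crossed 0 with both compounds.

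The ADAMTS proteases were mostly low. Adamts1 (chr16:85793827-85803113, minus strand), which cleaves the proteoglycans aggrecan and versican, had the largest fitted value among the 6 genes with an unadjusted p under 0.05 with MFI8. It had 16.7 and 22.5 CPM with vehicle, 19.8 and 24.2 CPM with MASM7, and 21.9 and 30.8 CPM with MFI8. The replicate 2 library was the higher one in every group, and the lower MFI8 library lay below the higher vehicle library. Its fitted log2 fold change was 0.43 with MFI8 (95% interval 0.03 to 0.83, edgeR adjusted p = 0.467), and it was 0.16 without the replicate 2 library of MFI8. The replicate block gave 0.42, at an edgeR adjusted p of 0.00139. With MASM7 it was 0.16 (-0.24 to 0.56), and -0.03 without the replicate 1 library of vehicle. Adamts9, of the same group, had 54.2 and 43.4 CPM with vehicle, 55.7 and 43.7 CPM with MASM7, and 49.4 and 34.3 CPM with MFI8, and its groups overlapped. Its fitted value with MFI8 was -0.23, and 0.02 without the replicate 2 library of MFI8. In the blocked fit it was -0.23 (edgeR adjusted p = 0.0308) against vehicle and -0.26 (edgeR adjusted p = 0.0172) against MASM7. Against MASM7 it was -0.0075 without the replicate 2 library of MFI8, and DESeq2 with the block gave an adjusted p of 0.227. Adamts4 and Adamts5, the aggrecanases of cartilage, had intervals that crossed 0 with both compounds.

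Adamts14 and Adamts2 remove the amino-terminal propeptide of fibrillar procollagens. Adamts14 was the higher one, at 22.8 to 33.1 TPM against 0.933 to 1.60 TPM for Adamts2. Its fitted log2 fold change was 0.25 with MASM7 (95% interval -0.04 to 0.54) and 0.09 with MFI8, and that of Adamts2 was -0.26 and -0.20. Without the replicate 1 library of vehicle, Adamts14 was at 0.47 with MASM7 and 0.32 with MFI8, and without its replicate 2 library at 0.06 and -0.10. The replicate block gave Adamts14 an edgeR adjusted p of 0.0249 with MASM7. Adamts2 with MFI8 was at 0.04 without the replicate 1 library of vehicle. Adamts7, which cleaves the cartilage oligomeric matrix protein, had 23.7 and 15.2 CPM with vehicle, 29.9 and 19.7 CPM with MASM7, and 21.6 and 15.1 CPM with MFI8. The replicate 1 library was the higher one in each group, by more than the groups differed. Its fitted value was 0.35 with MASM7 (95% interval -0.18 to 0.89, edgeR adjusted p = 0.609), and 0.02 without the replicate 1 library of MASM7. In the blocked fit the log2 fold change of Adamts7 was 0.35 with MASM7 (edgeR adjusted p = 0.0135) and -0.43 for MFI8 against MASM7 (edgeR adjusted p = 0.00131), and in DESeq2 with the block the latter had an adjusted p of 0.0705. Without the block and without the replicate 1 library of MASM7 the latter was -0.12. Adamts6 had 14.4 and 15.3 CPM with vehicle, 16.3 and 17.5 CPM with MASM7, and 17.1 and 16.3 CPM with MFI8, all treated libraries lying above vehicle at fitted values of 0.19 with MASM7 and 0.17 with MFI8. For Adamts10 and Adamts12 the intervals crossed 0. The ADAMTS-like proteins lack the protease domain. The 2 highest of them, Adamtsl4 and Adamtsl5, had fitted values of 0.13 and 0.33 with MFI8 and 0.08 and 0.24 with MASM7, and their groups overlapped. Adamtsl5 was at 0.10 with MFI8 and 0.0079 with MASM7 without the replicate 2 library of vehicle. Adamtsl4 with MFI8 was at -0.05 without the replicate 2 library of vehicle and -0.12 without the replicate 1 library of MFI8. With MASM7, Adamtsl4 was at -0.11 without the replicate 1 library of MASM7. Adamtsl1 and Adamtsl3, both under 1 TPM, had intervals that crossed 0.

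The 5 lysyl oxidases, copper enzymes that start the crosslinking of collagen and elastin, were led by Loxl1 at 150.4 to 179.6 TPM and Loxl4 at 120.4 to 140.3 TPM. Loxl4 (chr19:42593982-42612813, minus strand) had 144 and 147 CPM with vehicle, 154 and 161 CPM with MASM7, and 164 and 164 CPM with MFI8. All 4 treated libraries lay above both vehicle libraries. Fitted in edgeR, the log2 fold change was 0.17 with MFI8 (95% interval 0.05 to 0.28, edgeR adjusted p = 0.387), a level 12.4% higher, and 0.11 with MASM7 (-0.01 to 0.23, edgeR adjusted p = 0.501). The replicate block gave an edgeR adjusted p of 0.0289 with MFI8. Loxl1 had 154 and 139 CPM with vehicle, 155 and 153 CPM with MASM7, and 164 and 151 CPM with MFI8, with fitted values of 0.10 with MFI8 and 0.07 with MASM7.

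Lox itself, the first described member, had 115 and 94.2 CPM with vehicle, 109 and 89.3 CPM with MASM7, and 120.3 and 97.6 CPM with MFI8. The replicate 1 library was the higher one in each group, and the groups overlapped. Loxl2 also had its replicate 1 library higher in each group, with 67.7 and 57.6 CPM with vehicle, 64.1 and 58.6 CPM with MASM7, and 66.5 and 55.5 CPM with MFI8. Fitted values were 0.05 for Lox and -0.04 for Loxl2 with MFI8, and -0.08 and -0.03 with MASM7. All 4 signs turned in a fit without 1 library, but those fits hold no replicate term and carry the gap between the numbers. Lox with MFI8 was at -0.08 without the replicate 2 library of vehicle. Without its replicate 1 library, Lox with MASM7 was at 0.07 and Loxl2 at 0.08 with MFI8 and 0.09 with MASM7. Within each number, Lox was higher with MFI8 than with vehicle and lower with MASM7, and Loxl2 was lower with MFI8. With MASM7, Loxl2 was lower in number 1 and higher in number 2. Loxl3 (chr6:83034173-83052562, plus strand) was the lowest, and 11.6% of its exonic bases are shared with Htra2. It had 23.6 and 19.8 CPM with vehicle, 26.0 and 22.8 CPM with MASM7, and 22.02 and 18.7 CPM with MFI8.

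The hydroxylases and the chaperone act on procollagen in the endoplasmic reticulum. P4ha1 (chr10:59323296-59373304, plus strand), the main catalytic subunit of collagen prolyl 4-hydroxylase, was lower in every treated library. It had 149 and 148 CPM with vehicle, 134 and 138 CPM with MASM7, and 126 and 136 CPM with MFI8. The fitted log2 fold change was -0.18 with MFI8 (95% interval -0.31 to -0.06, edgeR adjusted p = 0.387), a fold of 0.881, and -0.13 with MASM7 (-0.26 to -0.01, edgeR adjusted p = 0.479), a fold of 0.912. Its blocked fit with MFI8 had an edgeR adjusted p of 0.0214. Its relative P4ha2 lay the other way, with 40.0 and 37.9 CPM with vehicle, 41.5 and 42.8 CPM with MASM7, and 43.5 and 41.0 CPM with MFI8. P4ha2 had fitted values of 0.12 with MFI8 and 0.11 with MASM7, with intervals that crossed 0, and all its treated libraries were above vehicle. P4ha3 was low, at 4.91 to 6.87 TPM, and its groups overlapped.

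Serpinh1 (chr7:99345376-99353239, minus strand), which encodes HSP47, had 861 and 838 CPM with vehicle, 943 and 999 CPM with MASM7, and 877 and 909 CPM with MFI8. All 4 treated libraries lay above vehicle, and those with MASM7 lay above those with MFI8. In the fit its log2 fold change was 0.19 with MASM7 (95% interval 0.08 to 0.31, edgeR adjusted p = 0.466), a level 14.3% higher, and 0.07 with MFI8 (-0.04 to 0.19, edgeR adjusted p = 0.658). Its blocked fit with MASM7 had an edgeR adjusted p of 0.0155. Of the lysyl hydroxylases, Plod3 (chr5:136987019-136996648, plus strand) had 147 and 143 CPM with vehicle, 157 and 167 CPM with MASM7, and 154 and 156 CPM with MFI8. Its fitted values were 0.16 with MASM7 (0.04 to 0.28, edgeR adjusted p = 0.473) and 0.10 with MFI8 (-0.02 to 0.22), and 11.9% of its exonic bases are shared with Znhit1 and Mir702. Plod1 was above vehicle in all treated libraries, at fitted values of 0.08 with MFI8 and 0.11 with MASM7. Plod2, the enzyme that hydroxylates the collagen telopeptides, had fitted values of -0.09 with MFI8 (-0.24 to 0.06) and -0.06 with MASM7 (-0.21 to 0.09).

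**Figure D4:**
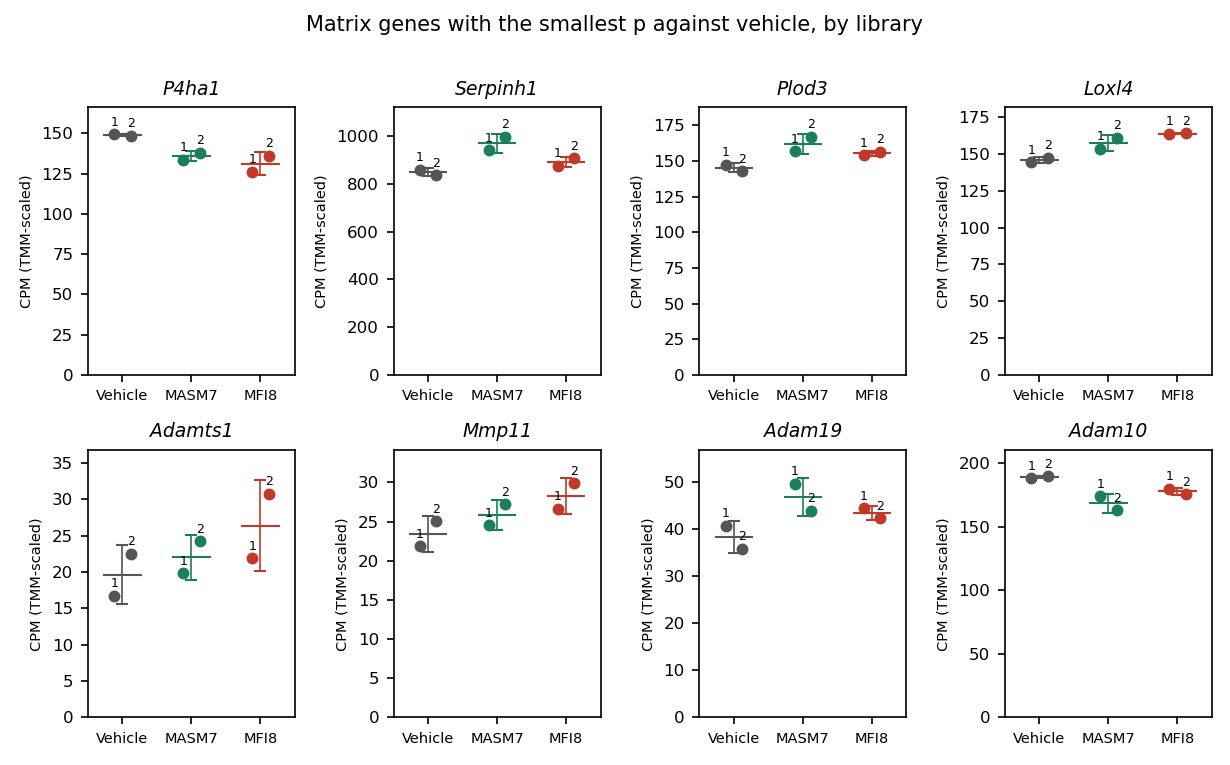
CPM of 8 genes with an unadjusted p under 0.05 against vehicle for at least 1 compound, with 1 numbered point per library, the group mean as a line and bars of 1 SD (n = 2). P4ha1 and Adam10 lie lower in all treated libraries, Serpinh1, Plod3, Loxl4 and Adam19 lie higher in all of them, and the vehicle and treated libraries of Adamts1 overlap.

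A list of 48 other genes of matrix processing was set beside these 54, and 34 of them were tested. They cover procollagen folding (P4hb, Fkbp10), procollagen cleavage (Bmp1, Pcolce), proprotein convertases, cathepsins, surface regulators of proteases and matrix crosslinking. None passed an adjusted p of 0.05 with either compound in edgeR. At an unadjusted p under 0.05, 3 were higher and 0 lower with MFI8, beside 5.21% and 4.65% of all genes. With MASM7, 4 were higher and 0 lower, beside 5.32% and 4.88% of all genes. Median log2 fold changes were 0.00 with MFI8 and 0.07 with MASM7.

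Of these, Tgm2, Rhbdf2 and Furin had the smallest p with MFI8, and they also had it with MASM7 against the same vehicle libraries. Tgm2, transglutaminase 2, which crosslinks matrix proteins by isopeptide bonds, had 57.3 and 58.0 CPM with vehicle, 64.8 and 74.6 CPM with MASM7, and 68.1 and 72.7 CPM with MFI8. All its treated libraries were above vehicle, at fitted log2 fold changes of 0.29 with MFI8 (95% interval 0.12 to 0.46, edgeR adjusted p = 0.341) and 0.27 with MASM7 (0.11 to 0.44, edgeR adjusted p = 0.466). Tgm2 passed with the replicate block, at edgeR adjusted p-values of 0.00309 and 0.0101, and in a fit of all genes with at least 1 count in some library, at 0.0128 and 0.0257. Rhbdf2, which encodes iRhom2, the partner that brings ADAM17 to the cell surface, had 19.9 and 19.1 CPM with vehicle, 22.4 and 23.1 CPM with MASM7, and 21.5 and 24.7 CPM with MFI8. Furin, the convertase that activates membrane-type MMPs and ADAMs, had 110.5 and 102 CPM with vehicle, 119 and 118 CPM with MASM7, and 117 and 116 CPM with MFI8. For both, all 4 treated libraries lay above vehicle, and the edgeR adjusted p was between 0.436 and 0.490.

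MFI8 and MASM7 were also compared with each other in the same fit. The concentrations differed, 20 μM against 1 μM, so the compound and its concentration cannot be told apart. In edgeR 0 of the 54 genes passed an adjusted p of 0.05, against 0% of all genes, and 0 passed in DESeq2, which called 0.168% of all genes, and in limma. With the replicate block 3 passed in edgeR, against 3.07% of all genes, namely Plau at -0.28 (edgeR adjusted p = 0.00421), Adamts7 and Adamts9, while in DESeq2 with the block 0 passed, against 0.784% of all genes. At an unadjusted p under 0.05, 0 were higher with MFI8 (4.23% of all genes) and 3 were lower (5.56%, against 2.95% of all genes). These were Serpinh1 at -0.12 (95% interval -0.23 to -0.01), Plau at -0.29 (-0.56 to -0.01) and Loxl3 at -0.27 (-0.53 to -0.0049). Their edgeR adjusted p-values were 0.662, 0.668 and 0.686. Plau was at -0.15 without the replicate 1 library of MASM7, and Loxl3 at -0.15 without the replicate 2 library of MFI8. Both MFI8 libraries lay below both MASM7 libraries for each of these 3 genes. They were picked by their p in this same comparison, and the share of all genes with such libraries was not counted.

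The next smallest p-values in this comparison belonged to Adam17 at 0.11, Mmp13 at -0.66 (95% interval -1.38 to 0.07), Timp1 at -0.10, Adamts7 at -0.45 (-0.98 to 0.09) and Adam1a at -0.37. Of the exonic bases of Adam1a, 63.7% are shared with other genes, and its level was 0.933 to 1.33 TPM. Plaur differed little between the compounds, by 0.04 (-0.08 to 0.16), and so did Loxl4, by 0.06 (-0.06 to 0.17), and P4ha1, by -0.05 (-0.18 to 0.08). A p that misses the threshold does not show that the compounds act alike on these genes. The median over the 54 genes was -0.02, with 23 genes above 0 and 31 below.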

How the data were processed

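RNA-seq of 6 MEF libraries was used, with 2 in each of 3 groups taken from the treatment labels. The doses and times come from the study's legends, not from the labels. After trimming (Trimmomatic) and alignment to GRCm38 (STAR), the authors counted reads on exons per gene with featureCounts and deposited the result as raw counts. Deposited TPM values served here to compare levels between genes. The authors' size-factor normalized counts were not used. The annotation release and the strand setting of the counting are not given in the sources used here, so reads of overlapping genes cannot be told apart.

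Counts of all 6 libraries were fitted in edgeR 4.0.16 (R 4.3.3) with TMM, filterByExpr (14290 genes) and group as the only term. The test was the quasi-likelihood F test. P-values were adjusted by Benjamini-Hochberg over all genes tested, at 0.05. DESeq2 1.42.0, limma 3.58.1 on log2(TPM + 1) for genes with a TPM of at least 1 in 2 libraries, a pseudocount of 0.1, other normalizations and filters, the 2 groups compared alone, a replicate block and each library left out were alternatives, 16 in all. The tests were also run on simulated counts without a replicate effect and with log2 fold changes of size 1. That run does not show how they handle the gap between the numbers or the smaller changes given here. An exact permutation test cannot go below p = 0.333 with 2 libraries against 2 and was not made. P-values cover the spread between these libraries only.

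The labels give every group the numbers 1 and 2, but no source says that a number marks a shared culture or day. The difference between the number 2 and the number 1 library correlated across all genes at 0.188 (vehicle and MASM7), 0.152 (vehicle and MFI8) and 0.165 (MASM7 and MFI8), and across the 54 genes at 0.747, 0.722 and 0.529. Genes are not independent replicates. As all 3 values over all genes were above 0.1, fits with the number as a block are given beside the main one. The main fit held no block, because the study names no pairing. Its counts, intervals and adjusted p-values therefore leave out any pairing by number.

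The members and lists were chosen with earlier results of these data known. Genes were named by a rule. It took the 8 with the smallest p in each comparison, all TIMPs, lysyl oxidases, hydroxylases with the chaperone and plasminogen activator genes, the 2 highest by TPM of every other list, and the 3 other pathway genes with the smallest p against vehicle. A member of the set is not reported here by name, though the counts and medians include it. Any gene outside this rule was picked with its values in view. Gene positions are from GENCODE vM21, where all 54 symbols matched, and promoter windows from RefSeq.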

Additional observations from a re-analysis of the deposited data

How the results depend on the processing

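The counts at an adjusted p under 0.05, which were 0 in all 3 comparisons, depended on the filter, the tool and a block. With no filter beyond 1 count in any library, 3 genes passed with MFI8 (Plaur and Adamts1 among them), 5 with MASM7 (Plaur, Serpinh1, Plau and Adam12 among them) and 2 between the compounds (Plau, Adamts7), and the counts at an unadjusted p under 0.05 were 11, 15 and 13 in place of 6, 6 and 3. This setting tested 26760 genes and called 0.957%, 0.475% and 0.628% of them after adjustment and 7.29%, 7.93% and 5.95% before it. The DESeq2 Wald test called 1 gene with MFI8, Plaur, and 0.329% of all genes. The cause was not tested. DESeq2 size factors or library size alone in edgeR, a fit of only the 2 groups compared, a minimum of 10 counts in each library, and limma at both pseudocounts, which tested 48 of the 54 genes, gave 0. Leaving out each library in turn also gave 0. The count at an unadjusted p under 0.05 then ran from 5 to 15 with MASM7, the 15 coming without vehicle replicate 1, and from 1 to 7 between the compounds, with 1 without MASM7 replicate 1, 6 without MASM7 replicate 2 and 7 without MFI8 replicate 1. The median log2 fold change with MFI8 ran from -0.036 without vehicle replicate 2 to 0.12 without vehicle replicate 1, so its sign turned between these fits. That with MASM7 ran from 0.035 to 0.14. None of the fits without a library held a replicate term. Of the 42 genes that the naming rule took, leaving out 1 library turned the sign in at least 1 fit for 18 with MFI8, 14 with MASM7 and 19 between the compounds. Of 2016 values for these genes under these alternatives, 1908 had the sign of the value reported and 108 the other sign, and 41 passed the threshold, those of Tgm2 included.

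Of the 54 genes, 28 were lower in the number 2 library in all 3 groups and 9 were higher, against 19.4% and 20.5% of all genes. With the replicate block in edgeR, 7 genes passed with MFI8 (Plaur, Adamts1, Loxl4, Mmp11, P4ha1 and Adamts9 among them), 9 with MASM7 (Plaur, Serpinh1, Plau, Adam10, Adam12, Adam19, Adamts7 and Adamts14 among them) and 3 between the compounds (Plau, Adamts7 and Adamts9). The same fit called 5.04%, 3.88% and 3.07% of all genes. At an unadjusted p under 0.05 it gave 16, 19 and 16 genes, and 18.6%, 19.9% and 15.6% of all genes. In DESeq2 with the same block, 3 passed with MFI8 and 3 with MASM7, beside 1.57% and 1.35% of all genes, and 0 between the compounds, beside 0.784%. Of the genes that edgeR called with the block, DESeq2 with the block also called Plaur and P4ha1 with MFI8 and Plaur and Serpinh1 with MASM7, and it missed the threshold for Loxl4 (0.0680) with MFI8, Adam10 (0.0572) with MASM7, and Plau (0.0683), Adamts7 and Adamts9 between the compounds. For Mmp11, Adamts1 and Adamts9 with MFI8 and Adam19, Plau, Adam12, Adamts7 and Adamts14 with MASM7 it gave no adjusted p. Such genes could not be called and were counted as not passing, so the DESeq2 counts need not cover all 54 genes. In that fit 11 with MASM7 and 8 between the compounds had an unadjusted p under 0.05, beside 8.22% and 6.46%. The edgeR block changed the call of no other gene named except Tgm2, and it changed no median by more than the spread between replicates. The number of libraries, 2 per group, and counts under 100 for the lowest genes, limit what these tests could detect.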
